A study of Mus musculus with 6 samples.

Results

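The genes described here are 46 markers of blood vessel cells, read out in cultured mouse hippocampal cells of both *Fmr1* genotypes. They were taken by symbol from the deposited table of 47086 loci, with no minimum level. Of the 46, 45 were found under the listed symbol and Eltd1 was found under its current symbol Adgrl4 (labelled Eltd1 in the plots). Where a symbol had several loci, as for Cldn5 and Erg, the locus with the highest mean was used. Primary hippocampal cultures were kept for 14 days in vitro, and total RNA was sequenced from 3 wild type (WT) and 3 *Fmr1* knockout (*Fmr1* KO) libraries, all labelled C57BL/6 and hippocampus. *Fmr1* encodes FMRP, an RNA-binding protein lost in fragile X syndrome. The methods give newborn pups as the source of the study's hippocampal cultures. The sources used here do not say which culture or litter each library came from, so p-values measure the spread between these libraries, which may be technical.

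The wall of a brain capillary is built from endothelial cells, which line the lumen and form the blood-brain barrier through tight junctions and selective transporters, and from pericytes embedded in the vessel's basement membrane. Larger vessels carry a coat of contractile smooth muscle, and pericytes and smooth muscle together are called mural cells. Endothelial cells are maintained by VEGF, angiopoietin and Tie receptor signaling, and they recruit mural cells by secreting PDGF-B, the ligand of PDGFR-beta. A dissociated hippocampal culture has no circulation, and vascular cells can persist in it as a minor admixture beside neurons and glia.

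The values are FPKM, fragments scaled to transcript length and library size, a level per length that can be set side by side between genes. The sums over a list of 13 neuron markers were 1944 to 2075 FPKM in the 6 libraries, and those over 9 astrocyte markers were 1740 to 2055. All 46 vascular genes together summed to 208 to 232 FPKM in WT and 200 to 206 in *Fmr1* KO, of which most was Cspg5. *Fmr1* itself had 19.0, 19.5 and 19.7 FPKM in WT, against 23.1, 21.8 and 18.5 in *Fmr1* KO. The log2 change of *Fmr1* was 0.12 (limma, Benjamini-Hochberg adjusted p = 0.718), so the transcript was not found lower in the libraries labelled *Fmr1* KO and does not check the labels, on which each direction given here rests. The absolute depth of the libraries is unknown. From the most common ratio of low values, 1 fragment was worth 1.1 to 1.34 times as much FPKM in WT replicate 1 as in the other libraries.

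Most of the vascular markers were weak. Cldn5 and Ly6a were listed at 0 in all 6 libraries, 7 genes were at 0 in 1 to 5 libraries, and 37 were above 0 in each library. The mean FPKM over the 6 libraries was at least 1 for 16 genes, from 0.1 to below 1 for 13 genes and below 0.1 for 17 genes. A mean of at least 5 FPKM was reached by 7 genes. The plot of FPKM by library shows this range and the lower position of the *Fmr1* KO libraries in many weak endothelial genes.

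**Figure D1:**
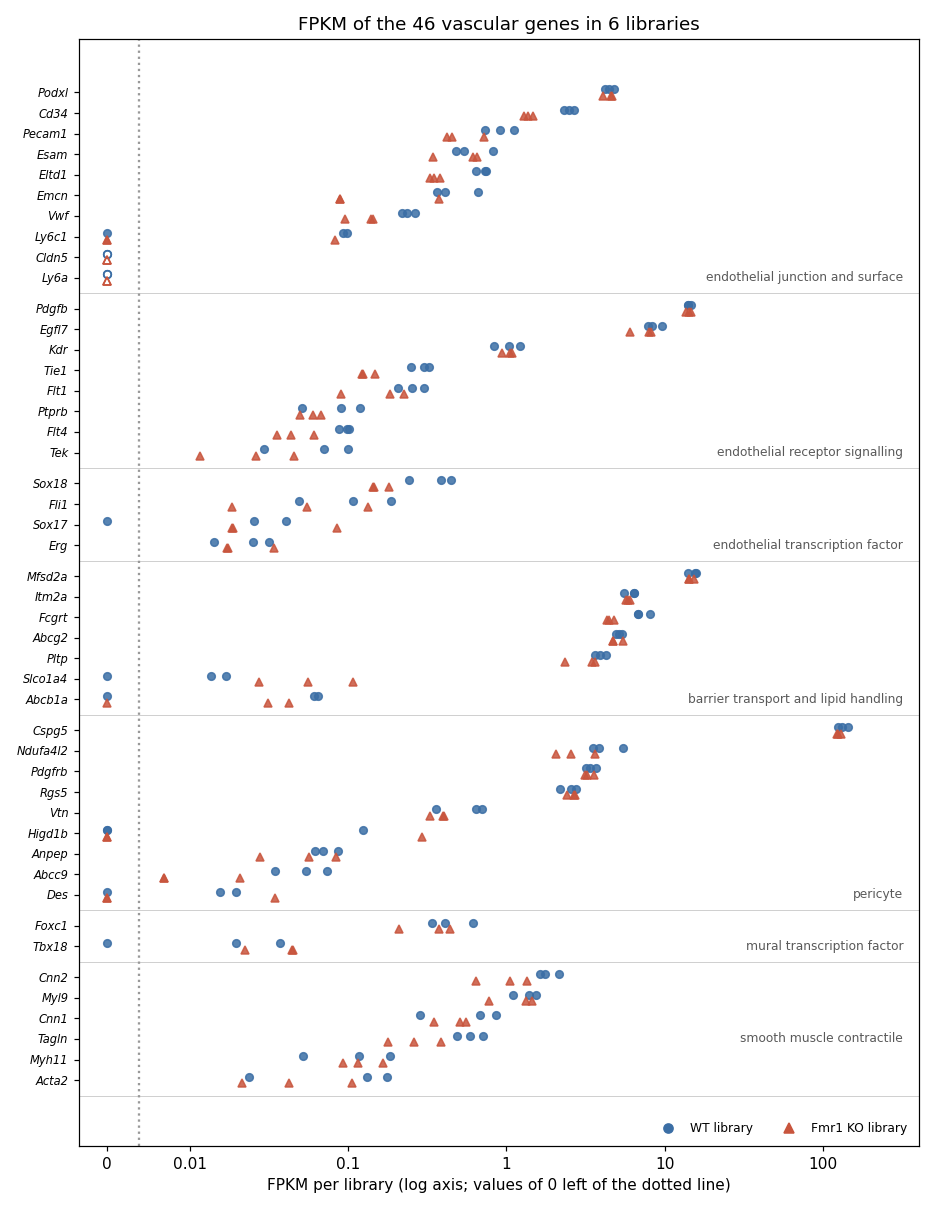
FPKM of each of the 46 genes (log axis) in the 3 WT libraries (circles) and the 3 *Fmr1* KO libraries (triangles), grouped by role, with values of 0 drawn left of the dotted line and open symbols where all 3 libraries of a genotype are at 0. Cspg5 stands far above the rest, at 123 to 143 FPKM, and Cldn5 and Ly6a are at 0 in all libraries.

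The genotypes were compared as log2(FPKM + 0.1) with limma over the 26981 loci above 0 in at least 1 library, which include 44 of the 46 genes. Of the 44 vascular genes, 0 had a Benjamini-Hochberg adjusted p below 0.05 in this limma comparison, against 0.0556% of all loci, and the smallest adjusted p was 0.133. Before adjustment, 14 of the 44 had a p below 0.05, against 9.8% of all loci, with 13 lower and 1 higher in *Fmr1* KO. Of all loci, 5.36% were lower and 4.43% were higher at that threshold. The log2 change was below 0 for 38 of the 44 genes, against 50.6% of all loci. Its median over the 44 was -0.23, against -0.0021 over all loci. In 12 genes the 3 *Fmr1* KO libraries all lay below the 3 WT libraries, as in 7.44% of all loci. In 1 gene, Slco1a4, they all lay above, as in 7% of all loci. The list was chosen with earlier results of these data known, so these counts describe the list and do not test it.

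Lower values were found at weak and at stronger genes, but the change was smaller at stronger genes. The median log2 change was -0.35 for genes with a mean below 1 FPKM, against -0.021 for all loci at that level. It was -0.070 for genes with a mean of at least 1 FPKM, against 0.0053 for loci at that level. Of the 7 genes with a mean of at least 5 FPKM, only Fcgrt had separated libraries. Of the 28 fitted genes with a mean below 1 FPKM, 8 had all *Fmr1* KO libraries below WT, against 4.94% of all loci at that level. Of the 16 genes with a mean of at least 1 FPKM, 4 did, against 10.1% of loci at that level. The genes with a mean below 1 FPKM summed to 7.71, 6.02 and 7.39 FPKM in WT replicates 1, 2 and 3 and to 4.58, 4.21 and 4.50 in the *Fmr1* KO replicates. These sums did not overlap between the genotypes. In RNA from whole cultures, fewer cells of a type and less RNA per cell cannot be told apart.

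**Figure D2:**
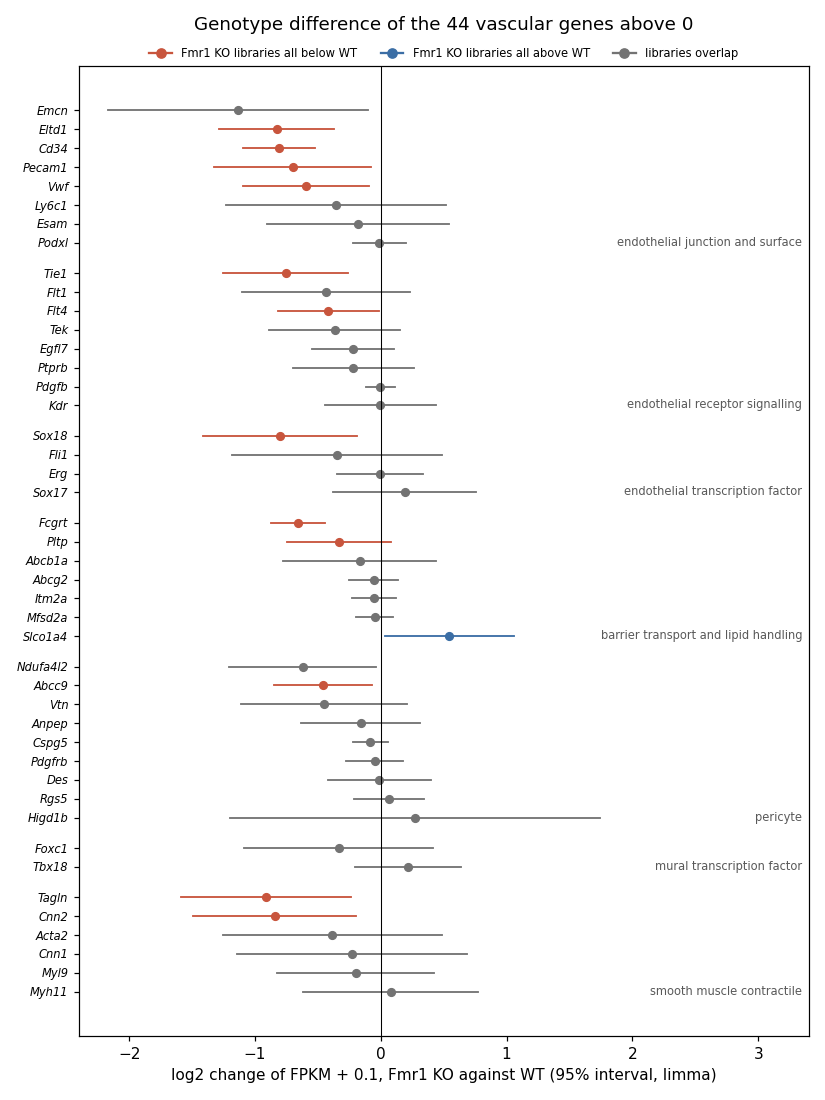
Log2 change of FPKM + 0.1 in *Fmr1* KO against WT with its 95% interval from limma, for the 44 genes above 0 in at least 1 library, grouped by role. Red marks the 12 genes whose *Fmr1* KO libraries all lay below the WT libraries, blue marks Slco1a4 where they all lay above, and 38 of the 44 points lie left of 0.

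The surface and junction genes of endothelial cells held 4 of the 12 separated genes. That is 4 of the 8 fitted genes of this group, against 7.44% of all loci, and 5 of the 8 had an unadjusted p below 0.05, against 9.8%. All 8 had a log2 change below 0, against 50.6% of all loci. The change of Podxl was only -0.013, and its sign turned when 1 library was left out. Cd34 (GRCm38 chromosome 1, 194938821 to 194976959), a sialomucin of endothelial and progenitor cells, had an FPKM of 2.50, 2.30 and 2.67 in WT, against 1.37, 1.30 and 1.46 in *Fmr1* KO. Every *Fmr1* KO library was thus far below every WT library, with a mean at 0.553 of the WT mean. The log2 change of Cd34 was -0.81 (limma adjusted p = 0.138, standard error 0.12), and among loci with a mean of at least 1 FPKM in either genotype the adjusted p was 0.0524. Adgrl4 (chromosome 3, 151437882 to 151545081), an adhesion G protein-coupled receptor of endothelial cells, had 0.639, 0.733 and 0.747 FPKM in WT, against 0.328, 0.349 and 0.383 in *Fmr1* KO. Its libraries were likewise separated, with a log2 change of -0.83 (limma adjusted p = 0.254, standard error 0.19) that stayed between -0.89 and -0.79 when each library was left out.

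Pecam1, an adhesion molecule of endothelial junctions, had an FPKM of 1.11, 0.733 and 0.907 in WT, against 0.422, 0.722 and 0.450 in *Fmr1* KO. The highest *Fmr1* KO library nearly reached the lowest WT library, and the adjusted p was 0.461 in limma. Vwf, which encodes the clotting protein von Willebrand factor, had 0.236, 0.221 and 0.264 FPKM in WT, against 0.140, 0.0955 and 0.143 in *Fmr1* KO. Emcn, a mucin of the endothelial surface, had 0.661, 0.410 and 0.364 FPKM in WT, against 0.0884, 0.374 and 0.0893 in *Fmr1* KO. For Emcn, *Fmr1* KO replicate 2 lay within the WT range, and the log2 change of -1.14 had a wide interval of -2.17 to -0.11. Esam, another junction molecule, overlapped between the genotypes, and its direction turned without WT replicate 3 or without *Fmr1* KO replicate 2.

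Podxl, an anti-adhesive sialomucin also made outside vessels, was the strongest gene of the group, with a mean of 4.48 ± 0.302 FPKM (SD, n = 3) in WT, against 4.44 ± 0.332 (SD, n = 3) in *Fmr1* KO. Its log2 change had an interval of -0.23 to 0.20. Cldn5, the main claudin of the blood-brain barrier, was at 0 in all libraries. It has 2 loci in the table, on chromosome 16 (18776847 to 18778262) and on a scaffold outside the chromosomes, both at 0, and the values of near-identical copies are uncertain. Ly6c1 and Ly6a, surface antigens of brain endothelium with near-identical relatives, share 1 bundle of loci on chromosome 15. Ly6c1 was at 0 in 3 of the 6 libraries and Ly6a in all, and both values are uncertain. Without Podxl the group summed to 5.51 ± 0.50 FPKM (SD, n = 3) in WT, against 3.13 ± 0.0800 (SD, n = 3) in *Fmr1* KO.

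The promoters of Cd34, Adgrl4 and Tie1 are shown because these genes had separated libraries and their upstream windows hold the core letters bound by ETS factors, the family of Erg and Fli1. Cnn2, a smooth muscle gene with separated libraries, also holds such cores, and its window is shown with the contractile genes. The windows are the 250 bases before the RefSeq start on GRCm38.p6, written 5′ to 3′ on the strand of the gene, and capitals mark AGGAAG or CGGAAG on either strand. They lie at chr1:194938571-194938820, plus strand for Cd34, chr3:151437632-151437881, plus strand for Adgrl4 and chr4:118489850-118490099, minus strand for Tie1.
Cd34: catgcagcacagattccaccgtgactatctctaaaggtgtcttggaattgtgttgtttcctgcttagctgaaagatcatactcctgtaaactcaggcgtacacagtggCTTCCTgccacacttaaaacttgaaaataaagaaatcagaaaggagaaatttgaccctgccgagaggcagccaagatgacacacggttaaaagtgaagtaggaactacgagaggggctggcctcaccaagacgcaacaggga
Adgrl4: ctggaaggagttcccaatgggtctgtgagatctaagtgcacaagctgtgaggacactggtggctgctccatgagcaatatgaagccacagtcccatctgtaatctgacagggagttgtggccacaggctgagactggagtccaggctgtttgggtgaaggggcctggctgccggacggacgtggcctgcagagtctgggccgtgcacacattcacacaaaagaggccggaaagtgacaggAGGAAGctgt
Tie1: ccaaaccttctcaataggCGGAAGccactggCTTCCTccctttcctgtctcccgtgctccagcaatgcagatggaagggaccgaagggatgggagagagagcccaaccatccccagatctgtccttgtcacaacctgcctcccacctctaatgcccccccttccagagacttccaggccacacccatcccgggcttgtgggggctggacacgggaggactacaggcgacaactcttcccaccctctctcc
The match begins 142 bases before the start in Cd34 and 10 bases before it in Adgrl4, and Tie1 has 2 matches, at 232 and 219 bases. Of the 46 genes, 30 had a RefSeq window, some with several starts, and 14 of the 30 held such a core. By window, 17 of 37 did (45.9%), against 39.2% of all 32851 windows. A match is a description of letters and does not show that a factor binds.

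Among endothelial signaling genes, the Tie and VEGF receptors were weak, and the libraries of the 2 strongest genes, Pdgfb and Egfl7, overlapped. All 8 had a log2 change below 0, against 50.6% of all loci, with Kdr at only -0.0032 and Pdgfb at -0.0041. In 2 the *Fmr1* KO libraries all lay below WT, against 7.44% of all loci. Tie1 (chromosome 4, 118471191 to 118489849), the orphan receptor that modulates angiopoietin signaling, had an FPKM of 0.302, 0.248 and 0.325 in WT, against 0.148, 0.124 and 0.122 in *Fmr1* KO. The *Fmr1* KO mean was 0.449 of the WT mean (log2 change -0.76, limma adjusted p = 0.333, standard error 0.21). Flt4, the VEGF-C receptor, had 0.0978, 0.0878 and 0.101 FPKM in WT, against 0.0609, 0.0356 and 0.0439 in *Fmr1* KO, also without overlap. Tek, the angiopoietin receptor, Flt1, a VEGF decoy receptor, and Ptprb, the endothelial phosphatase that acts on Tie receptors, each had a lower mean in *Fmr1* KO with overlapping libraries, at 0.419, 0.657 and 0.679 of the WT mean.

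Kdr, the main signaling receptor for VEGF-A, did not share this pattern. Its FPKM was 0.840, 1.23 and 1.04 in WT, against 0.943, 1.08 and 1.05 in *Fmr1* KO, with the *Fmr1* KO libraries inside the WT range. Its log2 change had an interval of -0.45 to 0.44, and a change of the size seen in Cd34 lies outside it. Pdgfb, the mural cell ligand, which neurons also make, had 14.6, 13.9 and 14.0 FPKM in WT, against 14.1, 14.7 and 13.6 in *Fmr1* KO. The interval of its log2 change, -0.12 to 0.11, was among the narrowest of the list. Egfl7, a secreted protein of the endothelial matrix, had 8.58 ± 0.945 FPKM (SD, n = 3) in WT, against 7.38 ± 1.19 (SD, n = 3) in *Fmr1* KO, with overlapping libraries.

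Of the endothelial transcription factors, Sox18 had separated libraries and Erg, Fli1 and Sox17 did not. Sox18 (chromosome 2, 181669837 to 181671640), a SOXF factor of vessel and lymphatic development, had an FPKM of 0.443, 0.241 and 0.385 in WT, against 0.143, 0.147 and 0.181 in *Fmr1* KO. The 3 *Fmr1* KO libraries were close together, at 0.440 of the WT mean (log2 change -0.81, standard error 0.26, limma adjusted p = 0.391). Fli1, an ETS factor of endothelial and blood cells, spread from 0.0489 to 0.188 FPKM in WT and from 0.0186 to 0.133 in *Fmr1* KO. Erg, the ETS factor that maintains endothelial identity, was at 0.0143 to 0.0341 FPKM in all libraries with no order by genotype. Sox17, a SOXF factor of arteries, was at 0 in WT replicate 1 and at most 0.0847 FPKM elsewhere.

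The genes listed for barrier transport and lipid handling had the highest summed FPKM of the endothelial groups. Of that sum 42.0% was Mfsd2a, while Abcb1a and Slco1a4 were close to 0. The libraries of 4 of the 7 overlapped. They separated in 2 that were lower and 1 that was higher in *Fmr1* KO, against 7.44% and 7% of all loci. How much of the stronger genes came from endothelial cells was not tested, so their values are not a reading of barrier endothelium. Fcgrt (chromosome 7, 45092992 to 45103846), the neonatal Fc receptor that recycles albumin and antibodies, had an FPKM of 8.04, 6.80 and 6.77 in WT, against 4.42, 4.32 and 4.81 in *Fmr1* KO. Its libraries were widely separated, with the *Fmr1* KO mean at 0.627 of the WT mean. Its log2 change was -0.66 (limma adjusted p = 0.133, standard error 0.09), the smallest adjusted p of the 44 genes. Among the 13195 loci with a mean of at least 1 FPKM in either genotype, of which 0.265% were called, the limma adjusted p of Fcgrt was 0.0307, and it was the 1 vascular gene below 0.05. Without that minimum, its limma adjusted p was 0.197 to 0.362 when each library was left out. Leaving out a library together with the minimum was not run. Fcgrt is also a gene of macrophages and microglia.

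Pltp, a phospholipid transfer protein, had 4.27, 3.88 and 3.62 FPKM in WT, against 2.35, 3.48 and 3.60 in *Fmr1* KO. The separation of Pltp was narrow and rested on small gaps between WT replicate 3 and *Fmr1* KO replicates 2 and 3. Mfsd2a, the lysophosphatidylcholine carrier that restrains transcytosis at the barrier, had 15.7, 14.0 and 15.6 FPKM in WT, against 14.2, 14.2 and 15.4 in *Fmr1* KO. The efflux pump gene Abcg2 had a mean of 5.14 ± 0.240 (SD, n = 3) in WT, against 4.94 ± 0.408 (SD, n = 3) in *Fmr1* KO. The membrane protein gene Itm2a, on the X chromosome, had 6.10 ± 0.472 and 5.85 ± 0.138 (SD, n = 3). The log2 intervals of these 3 genes all lay between -0.25 and 0.14.

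The transporters most restricted to brain endothelium were close to 0. Abcb1a, the P-glycoprotein efflux pump, was at 0 in WT replicate 1 and *Fmr1* KO replicate 1 and reached at most 0.0646 FPKM. Slco1a4, an organic anion carrier, had 0.0170, 0 and 0.0136 FPKM in WT, against 0.0273, 0.0559 and 0.107 in *Fmr1* KO. It was the 1 gene of the list whose *Fmr1* KO libraries all lay above WT (log2 change 0.54, limma adjusted p = 0.487, standard error 0.21). The number of fragments behind values of this size is unknown.

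**Figure D3:**
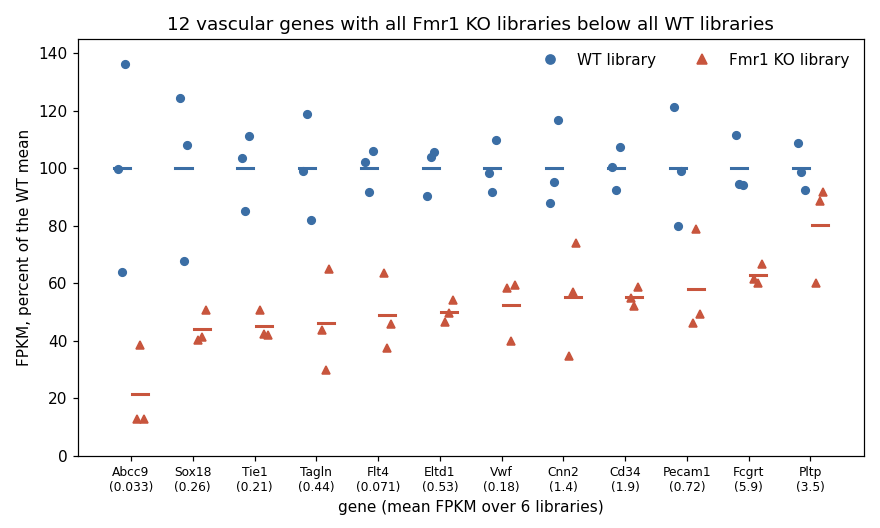
FPKM in each library as a percentage of the WT mean of the gene, for the 12 genes whose *Fmr1* KO libraries (triangles) all lay below the WT libraries (circles), with short lines for the genotype means and the mean FPKM over 6 libraries in parentheses. The *Fmr1* KO means lie between 0.213 of the WT mean for Abcc9 and 0.801 for Pltp.

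Across the 12 genes, which were picked for being lower, the median *Fmr1* KO mean was 0.513 of the WT mean, against 0.761 over all 44 fitted genes. *Fmr1* KO replicate 1 was the lowest of its group in 6 of them, replicate 2 in 5 and replicate 3 in 1. The plot of the 12 genes as a percentage of the WT mean shows the wide gap in Tie1, Adgrl4, Cd34 and Fcgrt and the narrow gap in Pecam1 and Pltp.

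The defining pericyte genes overlapped between the genotypes. Pdgfrb, the PDGF-B receptor of pericytes, had an FPKM of 3.37, 3.19 and 3.69 in WT, against 3.12, 3.22 and 3.55 in *Fmr1* KO. Rgs5, a regulator of G protein signaling in pericytes, had 2.19, 2.74 and 2.54 FPKM in WT, against 2.41, 2.67 and 2.72 in *Fmr1* KO. The libraries of both genes overlapped, and the log2 intervals were -0.28 to 0.18 for Pdgfrb and -0.22 to 0.35 for Rgs5. Whether pericyte genes differed from endothelial genes in their change was not tested. Ndufa4l2, a mitochondrial protein gene induced in hypoxia and found in pericytes, had 5.41, 3.82 and 3.50 FPKM in WT, against 3.63, 2.56 and 2.05 in *Fmr1* KO. *Fmr1* KO replicate 1 lay inside the WT range, and the log2 change of -0.62 had a standard error of 0.24 (adjusted p = 0.483 from limma).

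Abcc9, the regulatory subunit of a potassium channel of pericytes, had 0.0540, 0.0346 and 0.0738 FPKM in WT, against 0.00685, 0.0208 and 0.00692 in *Fmr1* KO. It had the lowest *Fmr1* KO share of the separated genes, at a level where the number of fragments behind a value is unknown. Vtn, the adhesion protein vitronectin, had 0.569 ± 0.184 FPKM (SD, n = 3) in WT, against 0.376 ± 0.0418 (SD, n = 3) in *Fmr1* KO, with overlap. Anpep, an aminopeptidase of the pericyte surface, was at 0.0276 to 0.0867 FPKM, Higd1b, a small mitochondrial membrane protein, was above 0 in 2 of 6 libraries, and Des, the muscle intermediate filament desmin, in 3 of 6. Cspg5, a transmembrane proteoglycan known from neurons and glia, made up 92.8% of the FPKM of this group. Its FPKM was 132, 124 and 143 in WT, against 124, 123 and 130 in *Fmr1* KO, and the log2 interval was -0.22 to 0.06. Of the mural transcription factors, Foxc1 had 0.454 ± 0.143 FPKM (SD, n = 3) in WT, against 0.342 ± 0.119 (SD, n = 3) in *Fmr1* KO, and Tbx18 was at most 0.0450 FPKM.

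Of the 6 smooth muscle contractile genes, 2 had all *Fmr1* KO libraries below WT, against 7.44% of all loci. Both were actin-binding proteins of the calponin family. Cnn2 (chromosome 10, 79988600 to 79995400), the calponin that is also made outside muscle, had an FPKM of 1.62, 1.75 and 2.15 in WT, against 0.640, 1.05 and 1.36 in *Fmr1* KO. Its mean in *Fmr1* KO was 0.552 of the WT mean (log2 change -0.84, limma adjusted p = 0.396, standard error 0.27). Tagln, or transgelin, had 0.592, 0.710 and 0.490 FPKM in WT, against 0.261, 0.178 and 0.388 in *Fmr1* KO (log2 change -0.92, limma adjusted p = 0.380, standard error 0.28). Its deposited locus, chromosome 9, 45838545 to 45936058, is long and may span neighboring genes, so it is not the position of Tagln alone. In both genes the *Fmr1* KO libraries spread more widely than the gap that separated them from WT.

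The contractile genes that define smooth muscle were weak and overlapped. Acta2, smooth muscle actin, had 0.0236, 0.177 and 0.132 FPKM in WT, against 0.0421, 0.0215 and 0.106 in *Fmr1* KO. Myh11, the smooth muscle myosin heavy chain, had 0.117, 0.185 and 0.0519 FPKM in WT, against 0.116, 0.166 and 0.0928 in *Fmr1* KO. The libraries of Acta2 differed several-fold within each genotype, as did those of Myh11 in WT, and a moderate difference between genotypes was not detectable. Myl9, the regulatory myosin light chain, had 1.34 ± 0.224 FPKM (SD, n = 3) in WT, against 1.18 ± 0.360 (SD, n = 3) in *Fmr1* KO, and Cnn1, the smooth muscle calponin, had 0.610 ± 0.293 and 0.472 ± 0.110.

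Serum response factor drives many contractile genes through the CArG box, which is CC, 6 letters that are each A or T, and GG, and was searched on both strands. Of the 4 contractile genes with a RefSeq window, Cnn2 and Myl9 held a CArG box in the 250 bases before the start. They are shown because they differ in the data, with separated libraries in Cnn2 and overlap in Myl9, and capitals mark the box. The windows are chr10:79988350-79988599, plus strand, for Cnn2 and chr2:156775214-156775463, plus strand, for Myl9, both from RefSeq on GRCm38.p6.
Cnn2: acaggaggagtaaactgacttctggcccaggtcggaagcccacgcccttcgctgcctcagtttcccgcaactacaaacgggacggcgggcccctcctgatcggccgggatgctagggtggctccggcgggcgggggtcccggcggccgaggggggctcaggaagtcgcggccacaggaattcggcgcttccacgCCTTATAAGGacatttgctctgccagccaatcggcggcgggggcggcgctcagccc
Myl9: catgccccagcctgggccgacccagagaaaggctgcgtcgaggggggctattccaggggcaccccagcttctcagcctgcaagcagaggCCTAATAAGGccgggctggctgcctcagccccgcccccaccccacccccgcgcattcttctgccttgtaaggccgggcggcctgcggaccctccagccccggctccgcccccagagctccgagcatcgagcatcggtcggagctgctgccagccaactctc
The box begins 56 bases before the start in Cnn2 and 161 bases before it in Myl9. No other vascular gene with a window held one, and 1.47% of all 32851 windows did.

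A wider list of vascular ligands and co-receptors was evenly split between lower and higher. It held VEGF and angiopoietin ligands and co-receptors beside PDGF, TGF-beta, Notch, Wnt and other ligands. The strongest of the list, Vegfa, Nrp1 and Vegfb, were far above the VEGF and Tie receptors. Of the 20 genes of this list, written beside the members, 10 had a log2 change below 0 and 10 above, with a median of -0.0030. In limma 0 had an adjusted p below 0.05 and 1 an unadjusted p below 0.05, against 9.8% of all loci. Vegfa, which neurons and astrocytes make, had an FPKM of 172, 178 and 173 in WT, against 170, 175 and 159 in *Fmr1* KO. The VEGF co-receptor gene Nrp1, also used in axon guidance, had 48.0 ± 1.11 and 47.1 ± 1.12 FPKM, and the VEGF ligand gene Vegfb had 42.8 ± 4.95 and 43.8 ± 1.34 (SD, n = 3). Above a mean of 1 FPKM, the lowest and highest log2 changes of the list were those of Pgf, -0.17, and Jag1, 0.18, neither past the test. Apln and Wnt7b, named after their values were seen, had all *Fmr1* KO libraries above WT. These are 2 of the 20 genes, against 7% of all loci, and 0 of the 20 had them all below, against 7.44%.

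Of 27 other endothelial genes, 25 were fitted and 20 had a log2 change below 0, against 50.6% of all loci. In 8 all *Fmr1* KO libraries lay below WT, against 7.44% of all loci. None of the 25 had an adjusted p below 0.05 in limma, and 6 had an unadjusted p below 0.05, against 9.8% of all loci. Ramp2, the adrenomedullin receptor partner needed for vessel integrity, had an FPKM of 12.1, 12.4 and 12.1 in WT, against 8.02, 7.94 and 9.41 in *Fmr1* KO (log2 change -0.52, standard error 0.07). Its adjusted p was 0.137 in limma and 0.0368 among loci with a mean of at least 1 FPKM in either genotype. Without that minimum, the limma adjusted p of Ramp2 was 0.0916 to 0.362 when each library was left out. Icam2, Eng and Mmrn2, endothelial genes named after their values were seen, had *Fmr1* KO means at 0.160, 0.386 and 0.421 of WT with separated libraries, from WT means of 0.350, 0.247 and 0.307 FPKM. Icam2 was at 0 in *Fmr1* KO replicates 1 and 2 and at 0.168 FPKM in replicate 3, so its ratio rests on values at 0. The amino acid, lipid receptor and glucose genes Slc7a5, S1pr1 and Slc2a1, which neurons and glia also use, were the strongest, with *Fmr1* KO means at 1.01, 0.959 and 0.893 of WT. The tight junction scaffold gene Tjp1 had the largest positive log2 change above 1 FPKM, 0.15, with overlapping libraries. Cdh5, the endothelial cadherin, also named after its values were seen, had 0.264, 0.373 and 0.245 FPKM in WT, against 0.0782, 0.254 and 0.303 in *Fmr1* KO, with overlap.

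Of 30 other pericyte and smooth muscle genes, 21 had a log2 change below 0, against 50.6% of all loci. In limma 0 had an adjusted p below 0.05 and 3 an unadjusted p below 0.05, and 3 had all *Fmr1* KO libraries below WT. Each of these counts of 3 is 10% of the list, near the 9.8% and 7.44% of all loci. The strongest, Vim, Tpm1 and Gucy1b3, are made by many cells and had *Fmr1* KO means at 0.973, 0.956 and 0.887 of WT. The muscle myosin kinase gene Mylk had the lowest log2 change above 1 FPKM, -0.37 (adjusted p = 0.576 in limma), and Nes, the nestin gene of progenitors, had the highest, 0.37 (adjusted p = 0.380).

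**Figure D4:**
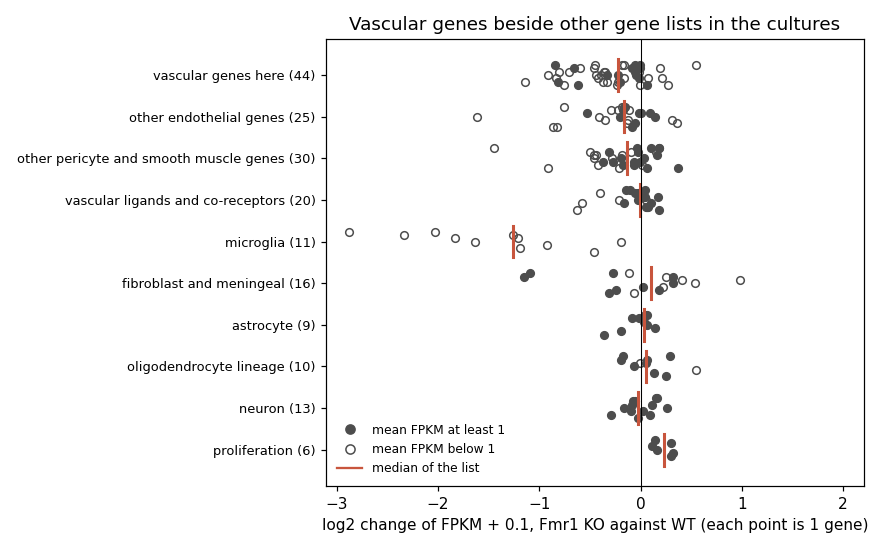
Log2 change of FPKM + 0.1 in *Fmr1* KO against WT for each fitted gene of the vascular genes and of 9 other lists, with filled points for a mean of at least 1 FPKM, open points below it, and a line at the median of each list. The median is -0.23 for the vascular genes and -1.26 for the microglia list, and the medians of the fibroblast, astrocyte, oligodendrocyte and neuron lists lie between -0.03 and 0.11.

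Markers of another weak cell type, microglia, also had lower values in *Fmr1* KO, with 0 of them at an adjusted p below 0.05 in limma. Of 13 microglia markers, Aif1 and Tmem119 were at 0 in all libraries, and the other 11 all had a log2 change below 0. In 7 of the 11 all *Fmr1* KO libraries lay below WT, against 7.44% of all loci. An unadjusted p below 0.05 was found for 8 of the 11 in limma, against 9.8% of all loci. The 13 summed to 7.73 to 10.03 FPKM in WT and 1.71 to 3.81 in *Fmr1* KO. The strongest, Lyz2, had 1.66, 1.29 and 2.31 FPKM in WT, against 0.0614, 0.314 and 0.124 in *Fmr1* KO. Its adjusted p was 0.133 in limma. Among loci with a mean of at least 1 FPKM in either genotype it was 0.0359. Lyz2 met that minimum only through WT (mean 1.75, against 0.166 in *Fmr1* KO), so the 0.0359 gives no support. The part of these cells in the values of Fcgrt, Cd34 and the other vascular genes was not tested.

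Fibroblast and meningeal markers did not move one way. Of 16, 7 had a log2 change below 0 and 9 above. Before adjustment 4 were lower and 4 higher at a p below 0.05 in limma, against 5.36% and 4.43% of all loci. The libraries separated in 3 that were lower and 5 that were higher, against 7.44% and 7% of all loci. The 16 summed to 185 to 190 FPKM in WT and 192 to 199 in *Fmr1* KO. Bgn, biglycan on the X chromosome, was the 1 gene of the list past an adjusted p of 0.05 and fell by 1.15 on the log2 scale (adjusted p = 0.0352 in limma), but when each library was left out its adjusted p was 0.0916 to 0.160. Serpinf1, which encodes the secreted factor PEDF and was named after its values were seen, was lower by a log2 change of -1.09, with a limma adjusted p of 0.155 (0.0368 among loci with a mean of at least 1 FPKM in either genotype). Without that minimum, the limma adjusted p of Serpinf1 was 0.258 to 0.335 when each library was left out. The strongest genes, Igfbp2, Dcn and Col6a1, had means in *Fmr1* KO at 1.25, 0.830 and 0.804 of the WT mean. Col1a1, a collagen of fibroblasts and mural cells named after its values were seen, had 0.418 ± 0.0802 FPKM (SD, n = 3) in WT, against 0.598 ± 0.165 (SD, n = 3) in *Fmr1* KO. Astrocyte, oligodendrocyte lineage and neuron markers had 4 of 9, 4 of 10 and 7 of 13 genes with a log2 change below 0. In limma 0 of the genes of these 3 lists had an adjusted p below 0.05. An unadjusted p below 0.05 was found for 1, 2 and 2 of them, against 9.8% of all loci.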

How the data were processed

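RNA-seq libraries of 3 WT and 3 *Fmr1* KO hippocampal cultures (14 days in vitro) were grouped by their labels. Per the methods, the authors clipped and trimmed reads and aligned them by TopHat2 to the GRCm38 genome, and Cufflinks and Cuffdiff gave the gene values. They deposited FPKM per library, which was used here, and group values, fold changes, p and q, which were not. The sources used here give no versions, annotation, strand or library scaling. FPKM are not counts, so log2(FPKM + 0.1) of all 26981 loci above 0 in at least 1 library was compared with limma 3.58.1 in R 4.3.3 (mean-variance trend, two-sided, Benjamini-Hochberg adjustment over all loci), with genotype as the only term. A change on this scale understates that of weak genes. No exact permutation p can be below 0.1 with 3 libraries against 3. Of 20105 loci at 0 in all libraries none was fitted. In simulated data of this comparison on 26981 loci, 44.5% of 200 loci given a log2 change of 0.5 were recovered, and 82.5% of 200 given a change of 1. The changed loci were drawn only from those with a mean of at least 1 FPKM, so these shares do not cover weaker genes. The 200 changed loci also outnumber the 15 loci called in the real comparison. More changed loci make the adjustment milder, so these shares do not give the power behind the counts reported here.

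The members and all lists (related vascular genes, microglia, fibroblast, astrocyte, oligodendrocyte, neuron, red blood cell, ependymal and choroid plexus, proliferation) were chosen with earlier results of these data known. All members are named. In the other lists the genes named are those at an adjusted p below 0.05, up to 3 of the highest mean, and the largest rise and fall above 1 FPKM, unless said otherwise. Promoter windows were searched for CArG boxes and, chosen after the values were seen, for ETS cores. Starts in the deposited table count from 0 and were raised by 1. Alternatives were pseudocounts of 1 and 0.01, both FPKM minimums, centring, no trend, the replicate number as a block and each library left out.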

Additional observations from a re-analysis of the deposited data

How the results depend on the processing

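Of the 44 fitted genes, 31 kept the sign of their log2 change under every alternative that gave a value, 29 of them lower in *Fmr1* KO. The signs that turned did so when 1 library was left out. The ranges over these fits were -0.32 to 0.06 for Esam, -0.059 to 0.049 for Podxl, -0.13 to 0.12 for Kdr, -0.034 to 0.026 for Pdgfb, -0.073 to 0.037 for Erg, -0.024 to 0.30 for Sox17 and -0.10 to 0.0057 for Pdgfrb. They were -0.020 to 0.13 for Rgs5, -0.39 to 0.66 for Higd1b, -0.16 to 0.060 for Des, -0.35 to 0.057 for Myl9, -0.62 to 0.037 for Cnn1 and -0.16 to 0.29 for Myh11.

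With a minimum mean of 1 FPKM, in either genotype or over all libraries, 16 vascular genes remained. Of these, 15 were lower, 1 was higher and 4 had an unadjusted p below 0.05. An adjusted p below 0.05 was reached by 1 of them (Fcgrt) and by 1 related gene (Ramp2). With the minimum in either genotype, 0.265% of loci reached it. Shares of all loci by direction and by unadjusted p were taken only in the main comparison. The member counts under the alternatives thus have no such share beside them and only describe the list. With either minimum the median log2 change of the vascular genes was -0.070, against -0.23 over all 44. It was -0.063 with a pseudocount of 1 and -0.42 with 0.01, as a larger pseudocount shrinks changes of weak genes. Over all loci, 6 were higher and 9 lower at an adjusted p below 0.05. These became 12 and 23 with the minimum in either genotype, 22 lower with the minimum over all libraries, and 5 lower with a pseudocount of 1. With 1 library left out, the median was -0.30 to -0.19, 34 to 37 vascular genes were lower, 7 to 10 higher (10 without WT replicate 3), 7 to 11 had an unadjusted p below 0.05 (7 without WT replicate 3), and 4 to 6 loci were higher and 1 to 3 lower after adjustment.

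The replicate number as a block left 8 vascular genes at an unadjusted p below 0.05, against 14, and 1 locus higher and 1 lower after adjustment. Same-numbered libraries had correlations of 0.262, 0.0441 and 0.0757 in their deviations from the genotype means, and WT replicates 2 and 3 did not correlate best with their own number, so the numbers were not taken as pairs. Depth is unknown, which limits what can be said of genes below 0.1 FPKM.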

Other observations

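Choroid plexus and ependymal markers, proliferation genes and red blood cell genes were read out beside the vascular genes. Of 8 choroid plexus and ependymal markers, 7 were fitted, and 1, Ttr, had an adjusted p below 0.05 (log2 change 8.83, adjusted p = 0.00017 from limma). The list did not move one way, with 4 of the 7 at a log2 change above 0 and 3 below. The libraries separated in 3 that were higher and 1 that was lower, against 7% and 7.44% of all loci. Before adjustment 3 were higher and 0 lower at a p below 0.05 in limma, against 4.43% and 5.36% of all loci. Besides Ttr these were Clic6, a chloride channel protein, and Aqp1, a water channel, both named after their values were seen, with separated libraries and log2 changes of 1.90 and 0.75. The gene with the next highest mean after Ttr, Foxj1, a transcription factor of motile cilia, had a mean in *Fmr1* KO at 0.991 of the WT mean. All 6 proliferation genes had a log2 change above 0, with a median of 0.23. In limma 0 of the 6 had an adjusted p below 0.05 and 1 an unadjusted p below 0.05, against 9.8% of all loci. Of 6 red blood cell genes, 3 were at 0 in all libraries and the list summed to at most 0.184 FPKM in any library.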
